A study of Mus musculus with 28 samples.

Results

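The 8 genes described here encode the enzymes that break down histidine (Hal, Uroc1, Amdhd1 and Ftcd) and tyrosine (Tat, Hpd, Hgd and Fah) in the liver. They were found by gene symbol among the 49585 features of the count table, and all 8 passed the filter on low counts, which kept 21583 genes. The series holds 28 liver libraries, 7 each from WT males, SIRT6-tg males, WT females and SIRT6-tg females, all C57BL/6JOlaHsd mice of 5 to 7 months killed after a short daytime fast. SIRT6-tg mice carried a whole-body transgene for the deacylase SIRT6, came from a single transgenic line and were compared with WT littermates, so that line and transgene cannot be told apart. The promoter that drives the transgene is not given in the sources used here.

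Histidine is degraded in the hepatocyte by a linear path in which HAL removes ammonia to give urocanate, UROC1 hydrates urocanate, AMDHD1 opens the imidazolone ring and FTCD passes the formimino group to tetrahydrofolate and releases glutamate. Tyrosine is degraded in parallel fashion. TAT removes the amino group, HPD forms homogentisate, HGD opens its ring and FAH splits the last intermediate into fumarate and acetoacetate, so that tyrosine feeds both glucose and ketone synthesis. Loss of single enzymes causes the human disorders histidinemia (HAL), alkaptonuria (HGD) and the tyrosinemias (FAH, TAT and HPD).

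Libraries held 18758863 to 35393069 assigned reads (median 26012203). Levels are given as CPM, the count of a gene relative to the scaled total of its library, with TMM scaling, which sets the bulk of genes equal between libraries. Sirt6 itself was at 1.69 to 3.24 CPM in WT males and 198 to 358 CPM in SIRT6-tg males, and at 1.80 to 6.22 CPM in WT females and 16.4 to 50.2 CPM in SIRT6-tg females. Every SIRT6-tg liver was above every WT liver of its sex, and the log2 fold change of 6.68 in males exceeded that of 3.39 in females by 3.29 (SE 0.35, adjusted p = 6.96e-06). All 15 hepatocyte markers were detected in every group. Their summed level was 123277 to 161954 CPM in WT males, 145861 to 198530 in SIRT6-tg males, 182391 to 236508 in WT females and 149522 to 215441 in SIRT6-tg females.

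Among the members, 3 lie on chromosome 10. Hal (ENSMUSG00000020017, chr10:93488768-93519304, plus strand, mm10) and Amdhd1 (ENSMUSG00000015890, chr10:93523338-93540033, minus strand) face each other with 4033 bases between their 3′ ends and 0 annotated genes in between, and Ftcd (ENSMUSG00000001155, chr10:76575648-76590338, plus strand) lies 16.9 Mb away. Uroc1 (ENSMUSG00000034456) is at chr6:90333284-90364551 on the plus strand. The tyrosine genes are spread over the genome, with Tat (ENSMUSG00000001670) at chr8:109990437-109999803 (plus), Hpd (ENSMUSG00000029445) at chr5:123171807-123182727 (minus), Hgd (ENSMUSG00000022821) at chr16:37580153-37632020 (plus) and Fah (ENSMUSG00000030630) at chr7:84585159-84606722 (minus). Exons of no other annotated gene overlapped those of a member. The span of Hpd overlaps Psmd9 on the opposite strand without shared exons, and whether reads were counted by strand is not stated.

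The 250 bases before the start sites of Hal, Amdhd1 and Ftcd are shown because these were the 3 members whose response to the transgene differed between the sexes. The sequences are RefSeq promoters of build GRCm38.p6, read 5′ to 3′ on the strand of the gene, at chr10:93488518-93488767 (plus), chr10:93540034-93540283 (minus) and chr10:76575398-76575647 (plus). Capitals mark matches to any of 8 motifs.
Hal: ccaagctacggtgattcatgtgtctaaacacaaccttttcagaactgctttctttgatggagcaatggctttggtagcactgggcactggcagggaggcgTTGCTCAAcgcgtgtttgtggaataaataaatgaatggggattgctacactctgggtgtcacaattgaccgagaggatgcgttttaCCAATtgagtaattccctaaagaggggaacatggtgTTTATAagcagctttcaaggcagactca
Amdhd1: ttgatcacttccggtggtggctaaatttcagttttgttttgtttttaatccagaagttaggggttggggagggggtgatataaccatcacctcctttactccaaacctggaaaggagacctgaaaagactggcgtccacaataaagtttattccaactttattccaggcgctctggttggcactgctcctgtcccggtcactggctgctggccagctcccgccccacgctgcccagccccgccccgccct
Ftcd: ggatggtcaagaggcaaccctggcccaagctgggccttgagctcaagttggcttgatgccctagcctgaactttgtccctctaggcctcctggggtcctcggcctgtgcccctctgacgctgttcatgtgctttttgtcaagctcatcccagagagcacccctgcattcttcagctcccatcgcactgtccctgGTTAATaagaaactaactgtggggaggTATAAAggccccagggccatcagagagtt
Each motif was searched on both strands, and its share is given among all 32536 distinct mouse promoter windows of this length. The TATA box, searched as TATAAA, was present in 12.3% of windows. The box CCAAT was present in 33.8%. The site CACGTG, which CLOCK and BMAL1 bind, was present in 6.04% of windows. A core of the glucocorticoid receptor site, searched as TGTTCT, was present in 16.0%. The C/EBP motif was searched as TTGCNNAA and was present in 9.57% of windows. For HNF1 the core GTTAAT was used, which 6.47% of windows held. For HNF4 the letters CAAAGTCC were used, which 1.20% of windows held. The core AGGTCA of nuclear receptor sites was present in 14.0%. No motif contains another. Hal held a C/EBP match 150 bases, a CCAAT box 64 bases and a TATA box on the opposite strand 28 bases before the start site. Ftcd held an HNF1 core at 56 bases and a TATA box at 29 bases before its start site, and Amdhd1 held 0 matches. Among the other members, CCAAT was found in Uroc1, Tat and Hgd, the nuclear receptor core in Uroc1 and Hgd and the C/EBP and TATA motifs in Hgd, while Hpd and Fah held 0 matches. The RefSeq window of Fah (chr7:84605943-84606192) lies inside its Gencode span, so the sequence before the Gencode start of Fah was not searched. The Hal and Amdhd1 windows thus shared none of these matches.

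The enzymes of tyrosine breakdown were expressed at higher levels than those of histidine breakdown. Per kilobase of exon, the mean level over the 28 libraries was 890 CPM for Hpd, 372 for Tat, 287 for Fah, 255 for Hgd, 137 for Uroc1, 115 for Ftcd, 102 for Amdhd1 and 80.1 for Hal. Hpd exceeded the next gene in 28 of 28 libraries, Fah exceeded Hgd in 27, Hgd exceeded Uroc1 in 28 and Amdhd1 exceeded Hal in 27. Tat against Fah (19 of 28), Uroc1 against Ftcd (19 of 28) and Ftcd against Amdhd1 (18 of 28) were neighbors that overlapped. Among 21518 genes ranked on this scale, Hpd stood at position 54 and Hal at position 535. With the longest transcript as the length, Tat followed Fah and Hgd, and the histidine genes kept their order. Together the 8 genes took 0.401% to 0.655% of all assigned reads of a library.

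In males, 7 of the 8 genes were higher in SIRT6-tg than in WT livers at an adjusted p under 0.05, all 4 of the histidine path and 3 of the 4 of the tyrosine path (edgeR quasi-likelihood test, adjusted over all genes). Of all genes tested, 9.68% were called higher. The study had itself picked Hal and Amdhd1 for display on these samples, so their direction is not independent evidence. The increases were modest, from 1.24-fold for Uroc1 to 1.67-fold for Hal.

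**Figure D1:**
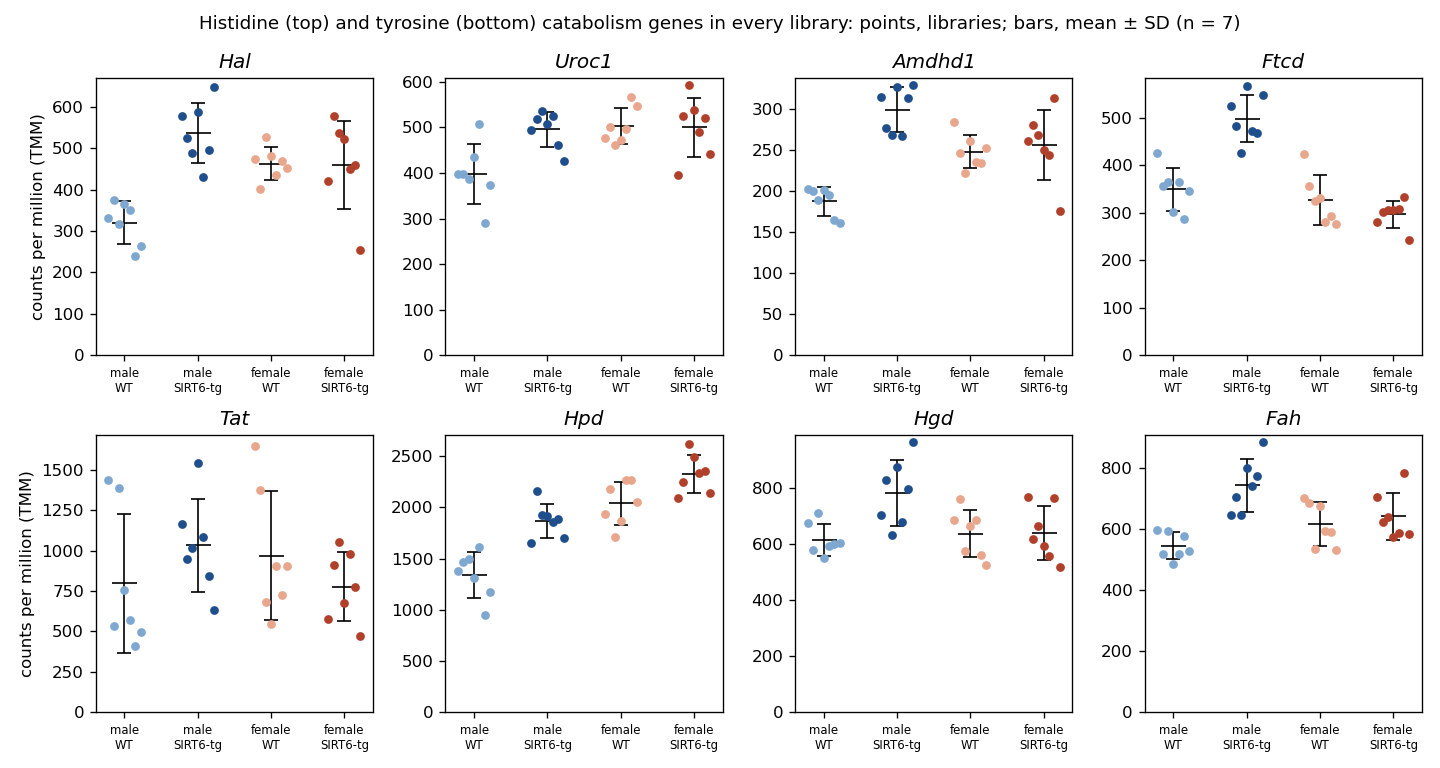
Level of each gene in every library, in CPM after TMM scaling, for the 4 groups of 7 livers. Points are libraries and bars give the mean ± SD. On this scale Hal, Amdhd1, Ftcd, Hpd and Fah in SIRT6-tg males lay wholly above WT males, while the female groups overlapped for all 8 genes.

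Hal, which commits histidine to breakdown, was at 239 to 374 CPM in WT males (median 333) and 431 to 648 CPM in SIRT6-tg males (median 525). The groups did not overlap, and the log2 fold change was 0.74 (SE 0.13, adjusted p = 9.18e-05). Uroc1, the second step, ranged from 290 to 508 CPM in WT (median 397) and 427 to 535 CPM in SIRT6-tg males (median 507). Its groups overlapped, with 3 of 7 SIRT6-tg livers above every WT liver, and the log2 fold change was 0.31 (SE 0.10, adjusted p = 0.0222). That call was lost without WT male replicate 3 or 7 or SIRT6-tg male replicate 2 or 4 (adjusted p up to 0.0953). Amdhd1, the third step and the neighbor of Hal, ran from 161 to 203 CPM in WT (median 196) and from 267 to 329 CPM in SIRT6-tg males (median 314), a log2 fold change of 0.67 (SE 0.10, adjusted p = 5.87e-06). It had the smallest adjusted p of the 8 genes, and its groups were separated by a gap of 63.6 CPM. Ftcd, which links the path to folate, was at 288 to 426 CPM in WT (median 357) and 427 to 567 CPM in SIRT6-tg males (median 482). The log2 fold change was 0.51 (SE 0.10, adjusted p = 0.000345), and the groups were separated by 0.881 CPM only.

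Tat, the first step of tyrosine breakdown and a classic target of glucocorticoids and fasting, was at 410 to 1434 CPM in WT males (median 570) and 630 to 1544 CPM in SIRT6-tg males (median 1018). Of the WT males, 2 livers were at 1384 and 1434 CPM and the other 5 between 410 and 755 CPM, and every SIRT6-tg liver was above the WT median. The log2 fold change of 0.37 (SE 0.28, adjusted p = 0.382) was within the spread, with an interval of 2 SE from -0.18 to 0.93. Hpd, the most abundant member, was at 954 to 1614 CPM in WT (median 1379) and 1650 to 2158 CPM in SIRT6-tg males (median 1886), and its log2 fold change was 0.48 (SE 0.10, adjusted p = 0.000566). Hgd, the ring-opening dioxygenase, was at 549 to 709 CPM in WT (median 598) and 633 to 964 CPM in SIRT6-tg males (median 796). Its groups overlapped, with 4 of 7 SIRT6-tg livers above every WT liver, and the log2 fold change was 0.35 (SE 0.11, adjusted p = 0.0187), a call lost without WT male replicate 4 or 7 or SIRT6-tg male replicate 7 (adjusted p up to 0.0765). Fah, the last step, ran from 486 to 598 CPM in WT (median 527) and from 646 to 886 CPM in SIRT6-tg males (median 741), with a log2 fold change of 0.44 (SE 0.09, adjusted p = 0.000678). In TMM-scaled CPM every SIRT6-tg male was above every WT male for 5 members (Hal, Amdhd1, Ftcd, Hpd and Fah), which held for 2.60% of all genes. Relative to library totals alone, the groups overlapped for Hal, Ftcd, Hpd and Fah, and Amdhd1 stayed separated.

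These calls depended on how the libraries were scaled. TMM factors were 1.06 to 1.17 in WT males and 0.821 to 0.993 in SIRT6-tg males, without overlap. When these factors were left out (library size alone), the median gene shifted from a log2 fold change of 0.06 to -0.22, and 2 members (Hal and Amdhd1) were called, where 0.973% of all genes were called higher. Scaling to secreted hepatocyte proteins gave the 15 hepatocyte markers above an equal mean log2 level in every library. Of these markers 8 were called higher in SIRT6-tg males with TMM (median log2 fold change 0.37). This scaling removes their mean change. Under it the median gene was at -0.26 and 1 member (Amdhd1) was called, against 0.672% of all genes. The split of all calls moved likewise, from 2090 higher and 2377 lower genes with TMM to 1395 and 2511 with RLE factors, 942 and 2649 with upper-quartile factors, 210 and 4084 on library size alone and 145 and 3856 on secreted hepatocyte proteins. Taken relative to the median gene, the 8 members lay 0.26 to 0.69 above it with TMM, 0.26 to 0.67 above on library size alone and 0.26 to 0.66 above on secreted hepatocyte proteins. The likeness of these ranges follows from the measure, since a change of factors shifts all genes by nearly the same amount. It therefore does not test which scaling is right. Uroc1 changed sign in absolute terms under the last scaling (-0.0012), and the other 7 kept theirs under every scaling.

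**Figure D2:**
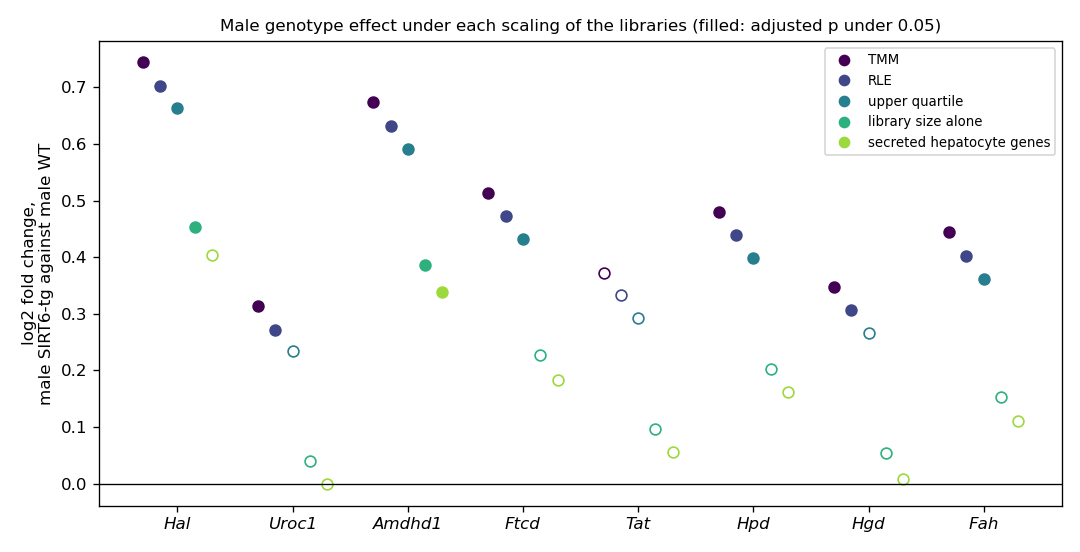
Log2 fold change of each gene in SIRT6-tg against WT males (vertical axis) under 5 scalings of the libraries. Filled points passed an adjusted p of 0.05. Hal and Amdhd1 were the highest members under each scaling, and Uroc1 and Hgd were at -0.0012 and 0.009 when libraries were scaled to secreted hepatocyte proteins.

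Markers of other cells moved in the same livers. All 10 T cell markers and all 10 macrophage markers were lower in SIRT6-tg males, and 6 of 7 stellate cell markers were lower. The summed T cell level fell from 19.1 to 54.2 CPM in WT males to 5.92 to 8.95 CPM in SIRT6-tg males, the macrophage sum was 445 to 1446 against 374 to 635 CPM and the stellate sum 444 to 713 against 355 to 471 CPM. The numbers of T cell and macrophage markers called lower were the same under the 5 scalings. Of the 15 hepatocyte markers, 8 were higher and 0 lower (median log2 fold change 0.37), where 9.68% of all genes were called higher. The median of the 8 members was 0.46. On library size alone 1 hepatocyte marker was higher and 1 lower, where 0.973% of all genes were called higher and 18.9% lower. In bulk liver a change in the number of cells of a type and a change in RNA per cell cannot be told apart, and the part of cell makeup in the values of the members was not tested.

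In females, 0 of the 8 genes passed at an adjusted p under 0.05 in edgeR, where 0.0278% of all genes did, and 0 reached an unadjusted p under 0.05, where 5.62% of all genes did. DESeq2 also called 0 of the 8, where it called 0.195% of all genes. Hal was at 400 to 526 CPM in WT females (median 468) and 255 to 577 CPM in SIRT6-tg females (median 459), a log2 fold change of -0.01 with an interval from -0.27 to 0.25. Uroc1 was at 460 to 566 (median 496) and 395 to 592 CPM (median 520), and its interval ran from -0.21 to 0.19. Amdhd1 was at 222 to 284 (median 246) and 176 to 313 CPM (median 261), with an interval from -0.15 to 0.24. Ftcd was at 276 to 425 (median 325) and 242 to 333 CPM (median 305), with a log2 fold change of -0.14 and an interval from -0.34 to 0.06. The 4 estimates of the histidine path lay between -0.14 and 0.05.

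Of the tyrosine genes in females, Tat was again the most variable, at 544 to 1647 CPM in WT (median 904) and 475 to 1051 CPM in SIRT6-tg livers (median 776). Its log2 fold change was -0.32 with an interval from -0.87 to 0.24. Hpd was at 1715 to 2265 (median 2055) and 2092 to 2619 CPM (median 2337), with 4 of 7 SIRT6-tg livers above every WT liver. Its log2 fold change of 0.19 (SE 0.10, unadjusted p = 0.0631, adjusted p = 0.923) was the highest of the female estimates. Hgd, at 524 to 759 (median 665) and 519 to 767 CPM (median 617), and Fah, at 533 to 703 (median 592) and 575 to 784 CPM (median 622), overlapped widely between genotypes. Their intervals ran from -0.20 to 0.22 and from -0.12 to 0.24. SIRT6-tg female replicate 7 held the lowest value of its group for 5 members (Hal, Amdhd1, Ftcd, Tat and Hgd). WT male replicate 6 likewise held the lowest of its group for 5 (Hal, Uroc1, Ftcd, Tat and Hpd), and the 7 male calls were kept without it.

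**Figure D3:**
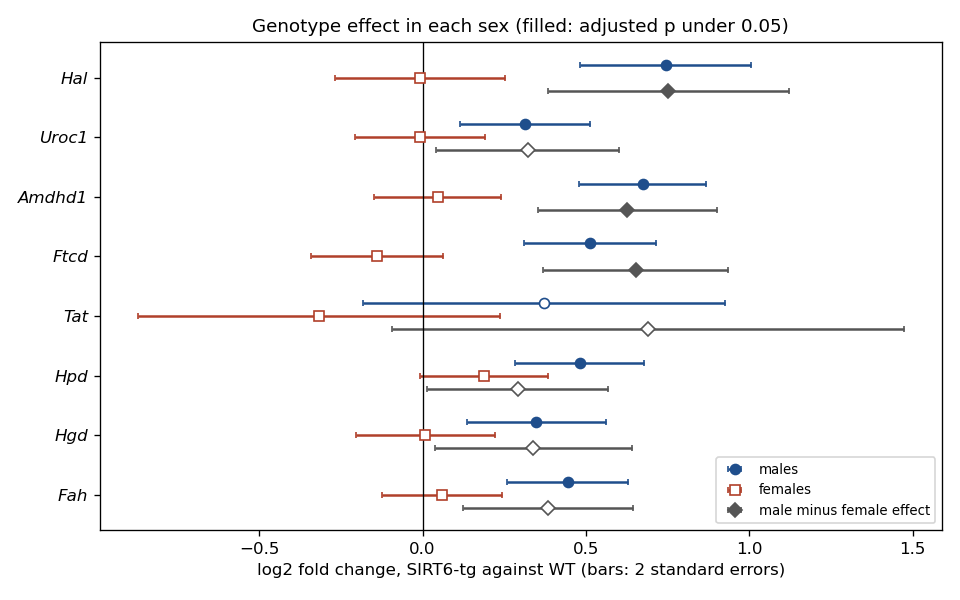
Log2 fold change in SIRT6-tg against WT livers of males and females, and the male minus the female effect, for each gene, with bars of 2 standard errors. Filled symbols passed an adjusted p of 0.05. The 7 filled male estimates lie above 0, and the difference between sexes is filled for Hal, Amdhd1 and Ftcd.

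The response to the transgene was compared between sexes as the difference of the log2 fold changes. It was larger in males for Hal by 0.75 (SE 0.18, adjusted p = 0.0129), for Amdhd1 by 0.63 (SE 0.14, adjusted p = 0.00576) and for Ftcd by 0.65 (SE 0.14, adjusted p = 0.00564). These 3 of 8 calls, all in the histidine path, stand against 1.20% of all genes called higher. Fah of the tyrosine path also passed when SIRT6-tg female replicate 6 was left out (0.43, adjusted p = 0.0331), where 2.01% of all genes were called higher. The differences of 0.38 for Fah (adjusted p = 0.0854), 0.34 for Hgd, 0.32 for Uroc1, 0.29 for Hpd and 0.69 for Tat did not pass, although 7 of 8 members had an unadjusted p under 0.05, as had 18.8% of all genes. The transgene was itself expressed at different levels in the 2 sexes, and sex and dose cannot be told apart. On library size alone 0 of the 3 calls held (adjusted p = 0.132 for Hal, 0.0952 for Amdhd1 and 0.0751 for Ftcd), with a median of all genes at -0.25, and 0 held with scaling to secreted hepatocyte proteins.

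Among WT livers the male level was below the female level for 4 of 8 members, where 5.71% of all genes were lower in males. The largest difference was in Hpd (log2 fold change -0.61, SE 0.10, adjusted p = 6.92e-05), followed by Hal (-0.53, SE 0.13, adjusted p = 0.00604), Amdhd1 (-0.40, SE 0.10, adjusted p = 0.00503) and Uroc1 (-0.33, SE 0.10, adjusted p = 0.0226). Uroc1 lost its call without WT male replicate 1, 3, 6 or 7 or WT female replicate 6 (adjusted p up to 0.0703). In TMM-scaled CPM every WT male was below every WT female for Hpd, Hal and Amdhd1, as for 1.64% of all genes. Relative to library totals alone, the sexes overlapped for Hal and Amdhd1 and not for Hpd. Ftcd (0.10), Tat (-0.28), Hgd (-0.05) and Fah (-0.17) did not pass. On library size alone, with a median gene at 0.19, only Hpd kept its call (-0.42, adjusted p = 0.00318). Hal (-0.34, adjusted p = 0.0592), Amdhd1 (-0.21, adjusted p = 0.0906) and Uroc1 (-0.15, adjusted p = 0.381) had the same sign without passing. Relative to the median gene, these 3 were at -0.53, -0.40 and -0.34. Scaling can hardly move this measure, so it does not test which scaling is right. Ftcd was called higher on library size alone (0.29, adjusted p = 0.0184), where 16.9% of all genes were called higher and 2.57% lower. With scaling to secreted hepatocyte proteins Ftcd (0.39, adjusted p = 0.00556) was the single call, with the median gene at 0.26 and 21.6% of all genes called higher. Relative to the median gene Ftcd was at 0.10 and 0.12 under these 2 scalings.

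Between SIRT6-tg males and SIRT6-tg females, Ftcd was higher in males by 0.75 (SE 0.10, adjusted p = 2.68e-06), with every male above every female, as for 3.58% of all genes. Hgd was also higher (0.29, adjusted p = 0.0473) and Hpd lower in males (-0.31, SE 0.10, adjusted p = 0.0199), where 12.9% of all genes were called higher and 10.2% lower. Ftcd and Hpd kept their direction and call under all 5 scalings, whereas Hgd was called with TMM alone and lost its call when any of 13 of the 28 libraries was left out (adjusted p up to 0.108). Hpd lost its call without SIRT6-tg female replicate 3 (adjusted p = 0.0501). Hal (0.22), Amdhd1 (0.22), Uroc1 (-0.01), Tat (0.41) and Fah (0.21) did not pass. The sex comparisons share their libraries with the genotype comparisons and are no separate evidence.

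Ratios of each step to the step before it, taken from the counts of the same library, do not depend on scaling. They were compared for 6 ratios in 4 comparisons by exact 2-sided permutation tests (7 against 7 libraries, smallest possible p = 0.000583), adjusted over the 24 tests. The ratios were chosen after the levels had been seen. In males the Uroc1/Hal ratio was 1.06 to 1.45 in WT (median 1.21) and 0.659 to 1.22 in SIRT6-tg livers (median 0.929), a log2 difference of -0.42 (exact permutation, adjusted p = 0.0233). Uroc1 thus increased less than Hal. The Amdhd1/Uroc1 ratio was 0.385 to 0.568 in WT (median 0.489) and 0.501 to 0.771 in SIRT6-tg males (median 0.637), a log2 difference of 0.35 (exact permutation, adjusted p = 0.042), but the adjusted p rose above 0.05 when any of 9 of the 14 livers was left out (up to 0.0717), namely WT replicates 2, 3, 4, 5 and 7 and SIRT6-tg replicates 1, 4, 6 and 7. The other 4 ratios did not pass in males, with log2 differences from -0.16 to 0.10, although Ftcd/Amdhd1 passed without WT male replicate 4 (-0.21, exact permutation, adjusted p = 0.00699), and 0 of 6 passed in females.

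The ratios also separated the sexes without any scaling. Ftcd/Amdhd1 was 1.50 to 2.15 in WT males (median 1.86) and 1.09 to 1.50 in WT females (median 1.27), and it was 1.49 to 1.77 in SIRT6-tg males (median 1.67) and 1.06 to 1.38 in SIRT6-tg females (median 1.14). Males exceeded females in every library within each genotype, by 0.50 and 0.51 on the log2 scale (exact permutation, adjusted p = 0.00466 for each). Hgd/Hpd was likewise higher in males, at 0.366 to 0.627 against 0.248 to 0.356 in WT and at 0.328 to 0.566 against 0.237 to 0.367 in SIRT6-tg livers, by 0.57 (exact permutation, adjusted p = 0.00466) and 0.61 (exact permutation, adjusted p = 0.0105). Hpd/Tat was lower in SIRT6-tg males than in SIRT6-tg females by 0.73 on the log2 scale (exact permutation, adjusted p = 0.0224), and in WT livers the difference of -0.27 did not pass. The genotype differences of Ftcd/Amdhd1 were -0.16 in each sex and those of Hgd/Hpd -0.15 in males and -0.19 in females, and they did not pass.

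**Figure D4:**
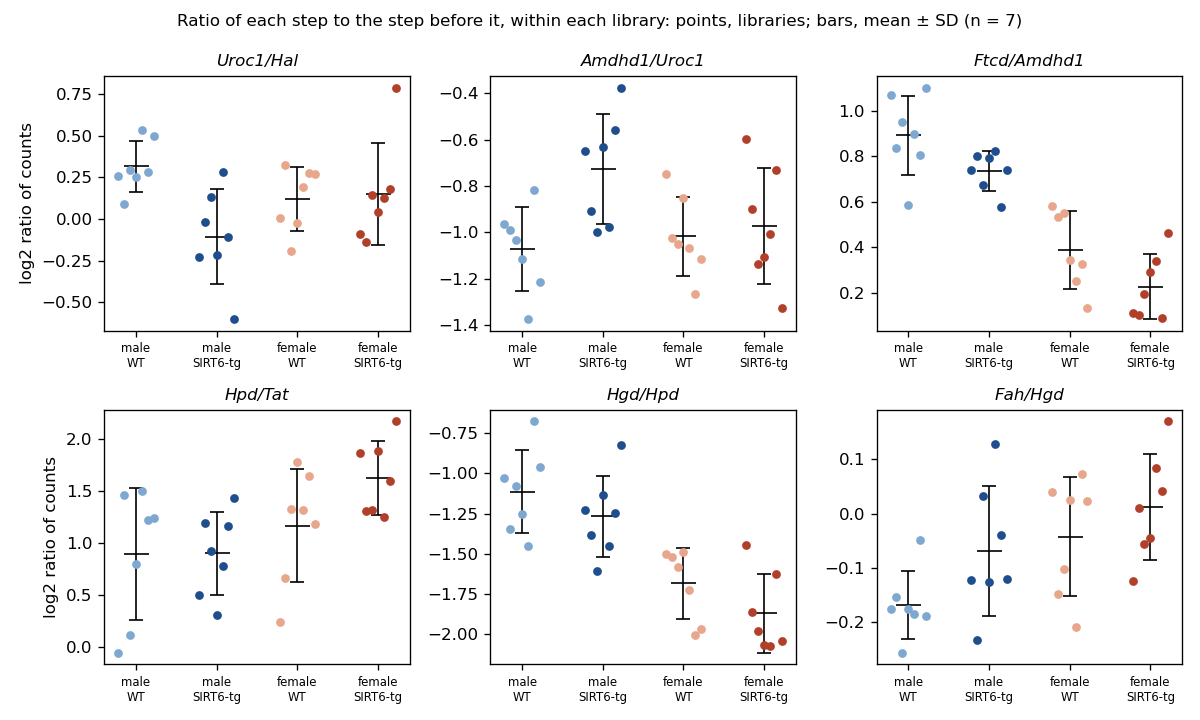
Log2 ratio of the counts of each step to the step before it in every library, for the 4 groups of 7 livers, with mean ± SD. Ftcd/Amdhd1 lay wholly higher in males than in females of the same genotype, and Uroc1/Hal was lower in SIRT6-tg than in WT males.

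Tat stood apart in its spread between livers of the same group. Its within-group SD was 0.54 on the log2 CPM scale, above that of 95.4% of the 1325 genes with a mean of at least 100 CPM, whose median was 0.24, and its coefficient of variation was 27.6% to 54.0%. The other 7 members had SDs from 0.16 (Fah) to 0.26 (Hal). The spread of Tat was seen in all 4 groups, and the intervals of its fold changes were correspondingly wide.

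Deviations of each library from its group mean were compared between members over the 28 libraries, which share their depth and scaling. The highest Pearson correlations were between Hgd and Fah (0.857), Uroc1 and Hpd (0.781) and the convergent neighbors Hal and Amdhd1 (0.764), and on library size alone the values were 0.733, 0.823 and 0.770. The lowest was between Uroc1 and Fah (-0.351). Of these pairs 2 lie within a path, while Uroc1 and Hpd belong to different paths. Uroc1 had lower values with the other histidine genes Hal (0.424), Amdhd1 (0.254) and Ftcd (0.124).

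**Figure D5:**
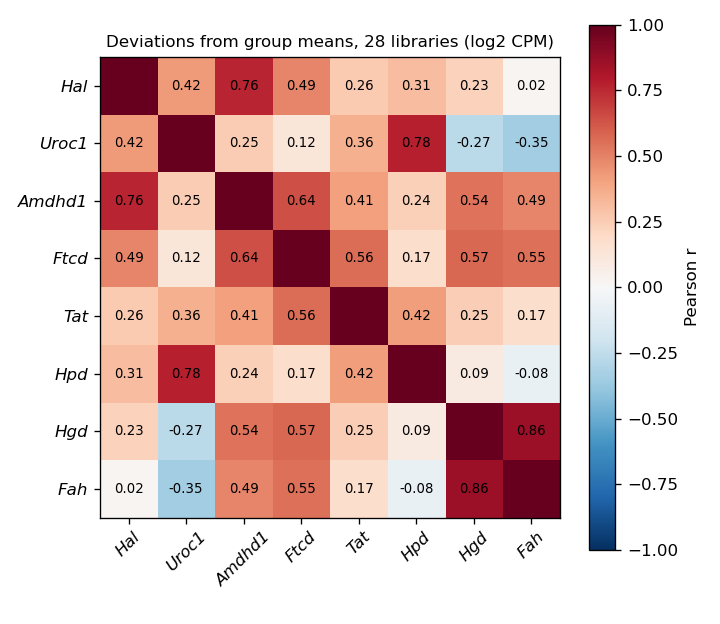
Pearson correlation between members of their deviations from the group means in log2 CPM over 28 libraries, from -1 (blue) to 1 (red). The darkest pairs off the diagonal are Hgd with Fah, Uroc1 with Hpd and Hal with Amdhd1.

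Of 12320 genes, those whose deviations were most like a given member were named by the same measure. For Hal they were Amdhd1 (0.764), Tbccd1 (0.705) and Dbt (0.679), and for Amdhd1 they were Hal, Pecr (0.721) and Acat3 (0.703). For Tat they were Pim3 (0.839), Pck1 (0.829), the gluconeogenic phosphoenolpyruvate carboxykinase, and Tob1 (0.828). Uroc1 was most like Papss2 (0.878), Suclg2 (0.866) and Slco2b1 (0.848), and Hpd like Dpyd (0.798), Papss2 (0.789) and Uroc1. Ftcd was most like Nsun2 (0.841), Nit1 (0.816) and Atp5a1 (0.802). Hgd was most like Tmem14c (0.896), Dap3 (0.891) and Tm2d2 (0.882), and Fah like Fkbp8 (0.949), Pemt (0.945) and Gnmt (0.942), the last of which methylates glycine.

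The 3 other genes examined around the tyrosine path were also higher in SIRT6-tg males, where 9.68% of all genes were called higher. Gstz1, the isomerase between HGD and FAH, was higher by 0.42 (SE 0.08, adjusted p = 0.00048), and Qdpr and Pcbd1, which regenerate the cofactor tetrahydrobiopterin, were higher by 0.57 (adjusted p = 0.0304) and 0.46 (adjusted p = 0.0202). The median of the 3 genes was 0.46 against 0.06 over all genes, and 0 of them were called on library size alone or with scaling to secreted hepatocyte proteins. Of 5 genes of reactions that take histidine elsewhere only Aldh9a1, an aldehyde dehydrogenase with several substrates, was higher (0.39, adjusted p = 0.00553), and the list median was -0.10. The histamine genes Hdc (-0.27, adjusted p = 0.475) and Hnmt (0.33, adjusted p = 0.0729) and the carnosine genes Carns1 (-0.10, adjusted p = 0.794) and Cndp2 (-0.12, adjusted p = 0.595) did not pass.

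Neighboring amino acid paths were examined from lists of textbook members. Of 8 genes of folate metabolism, which receives the FTCD product, 4 were higher in SIRT6-tg males (Shmt1 0.54, Shmt2 0.45, Mthfd1 0.39 and Gnmt 0.72), with a median of 0.35. In tryptophan breakdown 4 of 6 were higher (Haao 0.59, Kmo 0.36, Tdo2 0.42 and Afmid 0.55) with a median of 0.39. In threonine, serine and glycine metabolism 4 of 6 genes kept were higher (Gcat 0.67, Amt 0.35, Agxt 0.41 and Gldc 0.49) with a median of 0.48. In proline, arginine and glutamate breakdown 3 of 8 were higher (Gls2 0.56, Glud1 0.32 and Gpt 0.44) with a median of 0.32. Of 8 amino acid transporters 0 were higher and Slc7a8 was lower (-1.25), with a median of 0.03. These calls shared the dependence on scaling. On library size alone, of the genes named in this paragraph Haao and Gcat stayed higher, where 0.973% of all genes were called higher. With scaling to secreted hepatocyte proteins Gcat did, where 0.672% of all genes were called higher. The median of the folate list fell to 0.056 and 0.015 under these scalings. That of the proline, arginine and glutamate list turned to -0.0054 under the latter. Relative to the median gene, the folate list lay 0.27 to 0.30 and the tryptophan list 0.32 to 0.33 above it under the 5 scalings. As for the members, this likeness follows from the measure and is no test of the scaling.

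Genes known to be induced by glucocorticoids, of which Tat is a classic example, had a median of -0.60 in males, and 1 of 10, Lcn2, was lower (-3.75). Lcn2 is also an acute-phase gene of inflammation. Of 10 periportal genes 5 were higher and 0 lower (median 0.37), led by Cyp2f2 (0.65), Gls2, Ass1 (0.40) and Etnppl (0.89). On library size alone the periportal counts were 1 higher (Cyp2f2) and 1 lower (median 0.085), and on secreted hepatocyte proteins 0 and 1 (median 0.042). Of 10 pericentral genes Cyp2e1 was higher (0.36) and Rhbg lower (-1.18), near the shares of all genes, with a median of -0.0016. The pericentral counts were 0 higher and 4 lower on library size alone and on secreted hepatocyte proteins (medians -0.27 and -0.31). Cholangiocyte markers gave 0 calls of 6, endothelial markers 1 lower of 7 and pancreatic acinar markers 1 higher and 2 lower of 7 kept, with Prss1 at 0 in every group. On library size alone 2 cholangiocyte, 4 endothelial and 4 glucocorticoid-induced genes were called lower, and on secreted hepatocyte proteins 2, 3 and 5. Under these 2 scalings 18.9% and 17.9% of all genes were called lower, and 0.973% and 0.672% higher. In females 0 genes of each of these lists passed, where 0.0278% of all genes did.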

How the data were processed

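Liver mRNA of 28 mice was sequenced by the authors as single-end reads on an Illumina HiSeq after NEBNext Ultra library preparation. Per the labels and the study's methods, reads were aligned to mm10 with STAR 2.5.0a, unique reads were counted per Gencode gene with HTSeq, and raw read counts were deposited. Whether counting used strand is not stated. Groups came from the sample titles, and all 28 columns were mapped. Positions and exon lengths were taken from Gencode vM21, in which all 8 members have the same versioned identifier, and promoters from RefSeq.

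The filter on low counts required a mean normalized count of 0.5 or more over the 28 libraries (21583 genes kept). Counts were fitted with edgeR 4.0.16 (R 4.3.3, robust quasi-likelihood F-test, TMM factors, all 28 libraries in 1 fit of 4 groups), and p-values were adjusted by Benjamini-Hochberg over all genes kept. SE is the log2 fold change divided by the root of F, and intervals are 2 SE either side. Fitting was tested on simulated counts. The alternatives were RLE and upper-quartile factors, library size alone, scaling to secreted hepatocyte proteins, filterByExpr, no filter, DESeq2 1.42.0, a replicate block, each sex alone and leaving out each library. The secreted hepatocyte proteins are the 15 hepatocyte markers, whose mean log2 CPM was set equal between libraries.

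All 8 members are reported in every comparison. Of the other lists, all genes of the remaining tyrosine and histidine reactions and up to 4 called genes with the lowest adjusted p in males were named, plus the 3 genes most like each member. Of the listed genes, 2 are not reported here, and their lists are counted without them. Members and lists were chosen with earlier results of these data known. Replicates are separate mice. Same-numbered libraries did not deviate together (correlations -0.283 to 0.271), so the numbers were not treated as pairs. No pair of the 84 pairs of libraries of a group agreed within sampling noise.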

Additional observations from a re-analysis of the deposited data

Results flagged for a closer look

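The difference between sexes in the response to the transgene passed its test for 3 members. The male effect exceeded the female effect by 0.75 for Hal, 0.65 for Ftcd and 0.63 for Amdhd1 on the log2 scale (edgeR interaction term, adjusted p = 0.0129, 0.00564 and 0.00576). In TMM-scaled CPM each male SIRT6-tg liver was above each male WT liver for these genes, and the female genotypes overlapped. Relative to library totals alone, the male genotypes overlapped for Hal and Ftcd and not for Amdhd1. In no group of 7 did the highest or lowest liver stand apart from the rest by the gap test for any member (32 groups examined, of which chance alone would mark about 1 in 20).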

How the results depend on the processing

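The count of members called higher in SIRT6-tg males was 7 with RLE factors (6.46% of all genes called higher), filterByExpr (14.6%), no filter (4.73%), DESeq2 (8.21%) and the replicate block (8.98%), 6 with each sex fitted separately (6.80%, Uroc1 lost), 5 with upper-quartile factors (4.36%, Uroc1 and Hgd lost), 2 on library size alone and 1 with scaling to secreted hepatocyte proteins. The 3 calls of the difference between sexes became 0 under each of the last 2, where 8.63% and 12.1% of all genes were called in either direction. The 4 calls between WT sexes became 2 and 1, partly in other genes, where 19.5% and 23.4% of all genes were called. The SIRT6-tg sexes gave 1 to 5 calls when 1 library was left out, against 3, with 1 without SIRT6-tg female replicate 3, where 19.8% of all genes were called in either direction, and 5 without replicate 6 (26.0%), against 23.1% with all libraries. The ratio Fah/Hgd between WT sexes passed without WT male replicate 6 or WT female replicate 5 (adjusted p = 0.0472 and 0.028). With the replicate block 7 members were called in males, 0 in females, 3 for the sex difference, 4 between WT sexes and 2 between SIRT6-tg sexes. Of all genes, 19.5%, 0.0278%, 4.58%, 11.5% and 22.3% were called in either direction, in the same order. Only Hgd between SIRT6-tg sexes was lost (adjusted p = 0.0661). Females gave 0 calls under all of these settings.

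Signs turned as follows. With scaling to secreted hepatocyte proteins, Uroc1 in males was -0.00124. In females Hal was 0.13, Uroc1 0.13 and Ftcd 0.0247. The sex differences were -0.13 for Uroc1, -0.17 for Hpd, -0.14 for Hgd and -0.0903 for Fah, and between WT sexes Tat was 0.0504, Hgd 0.23 and Fah 0.11. On library size alone, Hal was 0.00354 and Uroc1 0.00299 in females, and Hgd was 0.15 and Fah 0.0196 between WT sexes. Hgd in females was -0.00358 with upper-quartile factors and -0.000131 with filterByExpr. The cause of these turns was not tested.

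Leaving out 1 library gave ranges across 0 in females for Hal (-0.0699 to 0.0934), Uroc1 (-0.0566 to 0.0405), Amdhd1 (-0.0109 to 0.12) and Hgd (-0.0418 to 0.0498), between WT sexes for Hgd (-0.0911 to 0.00783), and between SIRT6-tg sexes for Uroc1 (-0.0624 to 0.0347). The ratio Hpd/Tat in males ranged from -0.15 to 0.11, and in females Uroc1/Hal from -0.0777 to 0.0769 and Amdhd1/Uroc1 from -0.0161 to 0.11. In males Hgd lost its call in 3 such fits (adjusted p up to 0.0765) and Uroc1 in 4 (up to 0.0953), and Hal, Amdhd1, Ftcd, Hpd and Fah lost theirs in 0. The ratio tests were added after the data had been seen. In the other comparisons, all genes split into 260 higher and 829 lower for the sex difference against 26 and 1837 on library size alone, and into 1436 and 1233 between WT sexes against 3657 and 555.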
